A study of Mus musculus with 12 samples.

Results

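The genes described here encode 10 enzymes and helper proteins that turn newly made collagen into crosslinked fibrils, and they were found by symbol among 48321 genes measured in immortalized murine brown adipocytes. They are Lox, Loxl1 and Loxl2 (crosslinking), Plod1 and Plod2 (lysyl hydroxylation), P4ha1 and P4ha2 (prolyl hydroxylation), Serpinh1 (folding), and Pcolce and Bmp1 (propeptide cleavage). By the rule of matching symbols 10 of 10 were found, and all 10 were among the 11998 genes that passed the filter on low values and were tested. The cells were SV40-immortalized preadipocytes from interscapular brown fat of a newborn wild-type C57BL/6J mouse, stably transduced with a lentivirus that carried either the empty pLEX vector or pLEX with Flag-tagged truncated Sema4B (tSema4B), a soluble form that mimics the part ADAM17 releases. Both lines were selected with puromycin, differentiated for 8 days in the same medium, and then kept for 6 h in serum-free medium with BSA, either unstimulated or with 2 μM norepinephrine (NE), the ligand of β-adrenergic receptors. This gave 4 groups of 3 libraries each, named here by the line (vector or tSema4B) and by NE where it was added. The design text calls the 3 libraries of a group technical replicates and there was 1 line per construct, so p-values measure the spread between these libraries, and the effect of tSema4B cannot be told apart from other differences between the lines.

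Collagen chains are modified in the endoplasmic reticulum before they fold. Prolyl 4-hydroxylases stabilise the triple helix, lysyl hydroxylases prepare the lysines that are later joined, and the chaperone Hsp47 (Serpinh1) holds the folded helix. Outside the cell the Bmp1 protease, helped by the enhancer protein Pcolce, removes the C-propeptide, and lysyl oxidases then start the covalent crosslinks that make a fibril stiff. Preadipocytes are known for making fibrillar collagens, and fat cells reduce this as they mature. Several of these genes, among them P4ha1, P4ha2, Plod2 and Lox, are known targets of the hypoxia-inducible factor.

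Promoters are shown for P4ha1 and P4ha2, whose levels moved most alike within one enzyme family, and for Serpinh1, the chaperone, which moved more like Lox and Pcolce over the libraries. They are the 250 bases before each RefSeq start on GRCm38.p6, read 5′ to 3′ along the gene, at chr10:59323046-59323295 (+ strand) for P4ha1, chr11:54100674-54100923 (+ strand) for P4ha2 and chr7:99353240-99353489 (- strand) for Serpinh1. Capitals mark ACGTG or GCGTG, the core of the hypoxia-response element, and TGACG, the short form of the cAMP-response element, each sought on both strands.
P4ha1 promoter: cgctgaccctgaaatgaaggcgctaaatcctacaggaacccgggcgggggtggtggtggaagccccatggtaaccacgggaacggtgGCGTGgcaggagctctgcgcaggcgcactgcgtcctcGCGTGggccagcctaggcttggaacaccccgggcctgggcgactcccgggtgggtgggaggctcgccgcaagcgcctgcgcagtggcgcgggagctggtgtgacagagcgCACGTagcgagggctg
P4ha2 promoter: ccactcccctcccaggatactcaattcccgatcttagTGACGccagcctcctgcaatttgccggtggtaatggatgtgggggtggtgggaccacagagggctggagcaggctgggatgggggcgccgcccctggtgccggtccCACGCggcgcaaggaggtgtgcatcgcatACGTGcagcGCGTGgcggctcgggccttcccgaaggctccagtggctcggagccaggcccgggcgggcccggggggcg
Serpinh1 promoter: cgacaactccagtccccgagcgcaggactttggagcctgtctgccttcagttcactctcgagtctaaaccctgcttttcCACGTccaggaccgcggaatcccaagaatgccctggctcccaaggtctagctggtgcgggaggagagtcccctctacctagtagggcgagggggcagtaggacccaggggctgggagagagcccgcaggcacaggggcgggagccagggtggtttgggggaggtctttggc
The hypoxia core was found 3 times in the P4ha1 window, 3 times in the P4ha2 window and 1 time in that of Serpinh1. Windows were also at hand for Plod1 and Pcolce, and each held 1 match. Among 32851 RefSeq promoters of the same length, 38.6% held at least 1 match and 6.58% held 3 or more. The 5 windows held 58.8% (Pcolce) to 70% (P4ha2) G and C, and those promoters were not matched for this share. The Pcolce window also covers 83 exon bases of GENCODE. The cAMP motif was found in P4ha2 alone of these 5, 213 bases before the start, and in 17.8% of all promoters. The start used for P4ha2 lies inside the gene as GENCODE draws it. A match describes letters and not a bound site. Lox, Loxl1, Loxl2, Plod2 and Bmp1 were not searched.

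The libraries held 2000780 to 5409583 reads on genes, and in each condition depth was greater in the vector line. Mitochondrially encoded genes took 13.4% to 16.7% of reads in vector libraries and 6.91% to 7.89% in tSema4B libraries. Sema4b, the transduced gene, was measured at 65472 to 124008 normalized counts in vector libraries and 208760 to 316850 in tSema4B libraries. These ranges did not overlap, but the tSema4B level was only 2.40-fold higher without stimulation and 3.15-fold higher after NE, so the vector libraries, with 106135 to 131764 Sema4b reads each, are no control free of Sema4b RNA. A count per gene does not separate the endogenous transcript from the construct, and the source of the reads in vector libraries was not tested. The summed level of 10 adipocyte markers was 26455 to 28890 in unstimulated vector cells and 3521 to 5821 in unstimulated tSema4B cells, and after NE it was 38205 to 50146 and 5852 to 6958. That of 10 preadipocyte or fibroblast markers was 3541 to 3778, 5012 to 5776, 2771 to 2878 and 4612 to 4909 in the order vector, tSema4B, vector NE and tSema4B NE. Of the adipocyte markers 9 were tested, and 7 were lower in tSema4B cells without stimulation and 7 after NE. The shares of all genes tested were 7.39% and 11.2%. Of the preadipocyte or fibroblast markers 8 were tested, and 5 and 6 were higher, against 5.64% and 9.79% of all genes. With NE 3 of these 8 were lower in each line, Pdgfrb, Cd34 and Dlk1 in both, and 1 was higher. Among all genes 4.78% and 2.58% were lower with NE in vector and tSema4B cells, and 6.82% and 3.68% higher. Of the 9 adipocyte markers, 2 were higher with NE in vector cells (Ucp1 and Fabp4) and 2 lower (Pparg and Plin1), and 3 were higher in tSema4B cells. Fabp4 made up most of the adipocyte sums, with means of 24034 in vector and 40898 in vector NE cells. The median log2 fold change of the 9 with NE in vector cells was -0.03, with 7 below 0. Members of both lists thus moved with the line and with NE, and their part in the results was not tested. In such bulk RNA, fewer cells of a type and less RNA per cell cannot be told apart. Of the 5 macrophage or blood markers, Ptprc and Adgre1 were at 0 in all groups and Csf1r was tested. Csf1r, the receptor of macrophage colony-stimulating factor, had 0 to 2 reads in each unstimulated library and 9 to 22 with NE, and was higher with NE in vector (adjusted p = 0.0289, limma) and tSema4B cells (adjusted p = 0.0119, limma). The 5 summed to 3.36 to 7.60, 0 to 5.48, 13.4 to 23.6 and 9.65 to 24.6 normalized counts in the same order of groups. Cd68 and Lyz2 had group means of 4.70 or less and 0.795 or less. Csf1r alone of the 5 was thus seen to move with NE, and its part in the NE comparisons was not tested. Of the 5 endothelial markers Kdr was at 0 in all groups, while Pecam1 had a mean of 7.32 to 14.1 in the 4 groups and did not pass in any comparison. The 5 summed to 4.34 to 12.0, 13.1 to 23.3, 5.24 to 14.8 and 12.9 to 18.5, so without stimulation the tSema4B libraries were all higher, and the part of these markers in the line comparison was not tested. Of the 4 skeletal muscle markers Myod1, Myog and Myf5 were at 0 in all groups, while Des had a mean of 9.63 to 27.9 and did not pass either. The 4 myofibroblast or smooth muscle markers, of which 3 were tested, summed to 863 to 1339, 1188 to 1332, 679 to 929 and 545 to 892 in that order of groups. Acta2, smooth muscle actin, was lower with NE in vector (-0.55, adjusted p = 0.0362, limma) and in tSema4B cells (-0.75, adjusted p = 0.00785, limma). Tagln, an actin-binding protein, was lower with NE in tSema4B cells (-1.24, adjusted p = 0.000422, limma), and after NE it was lower in tSema4B than in vector cells (-0.80, adjusted p = 0.0068, limma). Acta2 was at -0.03 between the lines after NE. Cnn1, the third of those tested, went the other way there, at 1.36 (adjusted p = 0.145, limma) with no overlap of libraries. Its group means were 7.07 to 18.6, and it passed in no comparison. With NE in tSema4B cells it was at 0.64, also without overlap. The part of these markers in the results was not tested.

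Positions of the genes below are on GRCm38 and the counts cover their exons. The levels of the enzymes spanned more than 2 orders of magnitude when divided by exon length. In unstimulated vector cells the highest were Serpinh1 with 1550 ± 154 and Lox with 1370 ± 101 normalized counts per kb (SD, n = 3), followed by Pcolce with 426 ± 29.1 and P4ha1 with 296 ± 6.41. The lowest were Bmp1 with 13.6 ± 1.44 and Loxl2 with 12.2 ± 4.98. The sum of normalized counts over the 10 genes was 14697 to 14857 in vector, 16976 to 19336 in tSema4B, 12216 to 12690 in vector NE and 16709 to 18018 in tSema4B NE libraries, so both tSema4B groups lay above both vector groups. Lox alone made up 37.3% to 47.2% of this sum. Vector NE had the lowest mean for 6 genes (Lox, Loxl1, Plod1, Serpinh1, Pcolce and Bmp1) and vector unstimulated for the other 4. The highest mean was in tSema4B NE for 6 genes (Lox, Loxl2, Plod2, P4ha1, P4ha2 and Bmp1) and in unstimulated tSema4B for the other 4. With the groups of each gene in order of their means, 16 of 30 neighbouring pairs overlapped in their libraries.

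**Figure D1:**
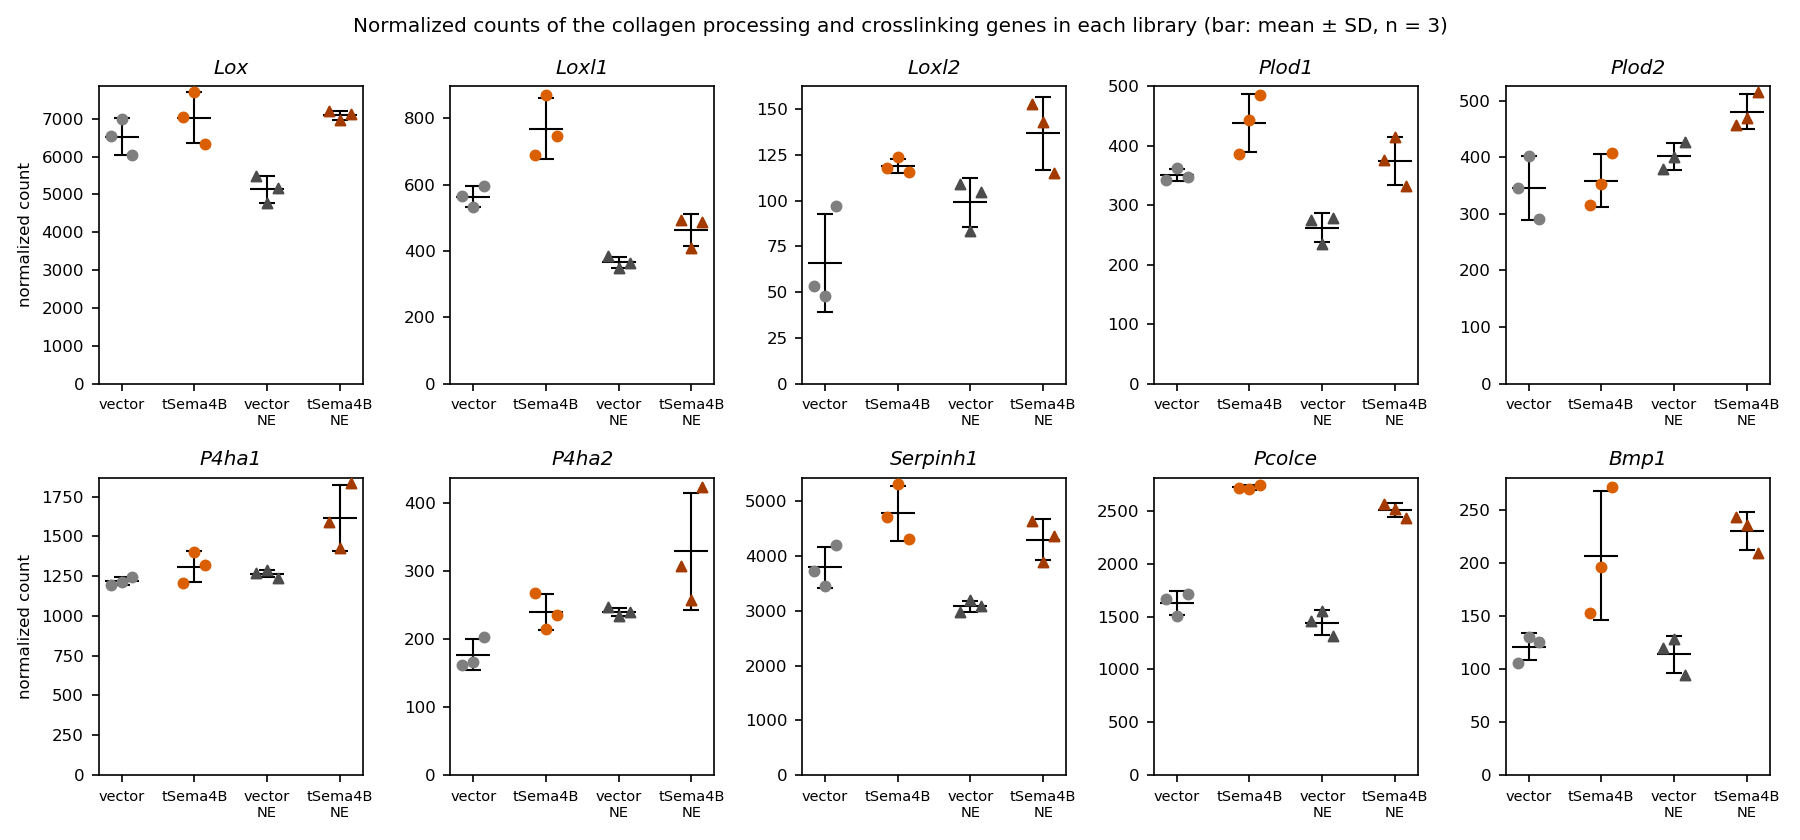
Normalized counts (y axis, from 0) of the 10 genes in the 12 libraries, by group (x axis). Points are libraries and bars are means ± SD, n = 3. Pcolce, Bmp1 and Loxl2 were higher in every tSema4B library than in every vector library, and Loxl1 was lower in both NE groups.

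The first comparison asked how tSema4B cells differed from vector cells without stimulation. All 10 genes had a fold change above 0, with a median log2 fold change of 0.39 against 0 over all genes tested, of which 49.9% lay above 0. Of the 10, 5 passed the test (adjusted p of 0.05 or less, limma) and all of these were higher, where 5.64% of all genes tested were higher. The count was 2 without vector unstimulated replicate 2, where Loxl1, Loxl2 and Serpinh1 were lost, and 3 without vector unstimulated replicate 1 or tSema4B unstimulated replicate 2. None was lower, where the share of all genes was 7.39%. In 7 of the 10 the tSema4B libraries all exceeded the 3 vector libraries, which was so for 14.2% of all genes. None of the 10 passed with a log2 fold change of 1 or more, a size that 1.11% of all genes reached upwards.

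The same contrast was then made after NE. Again all 10 genes had a fold change above 0, as had 49.0% of all genes tested. Of the 10, 7 passed, all of them higher, against 9.79% of all genes tested, and 0 were lower against 11.2%. The median log2 fold change was 0.47 against -0.01 over all genes, and in all 10 genes the 3 tSema4B NE libraries lay above the 3 vector NE libraries, against 17.9% of all genes. Only Bmp1 also reached the size of 1 on the log2 scale, as 2.03% of all genes did upwards. Its value was 1.02, and ran from 0.89 to 1.11 over 18 alternatives.

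**Figure D2:**
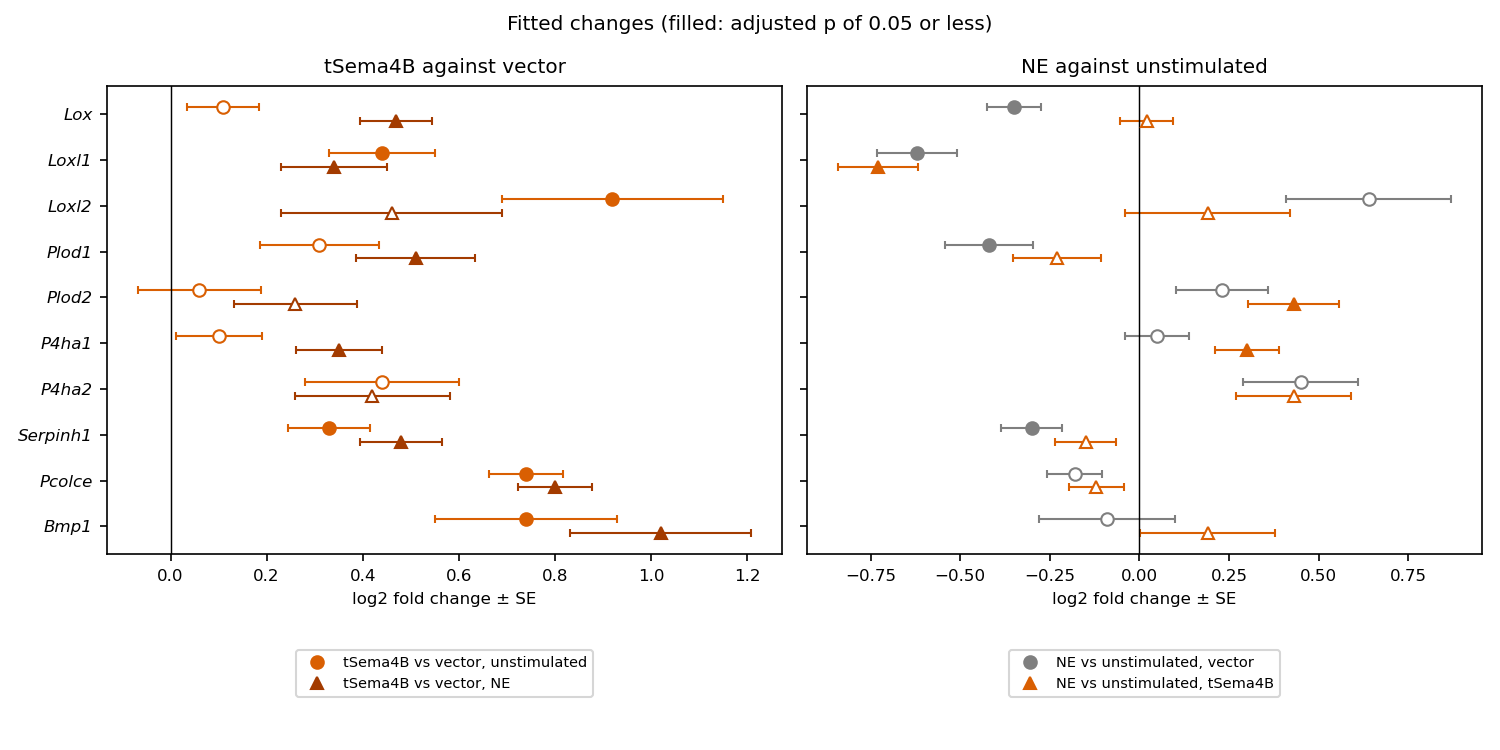
Log2 fold changes ± SE (x axis) of the 10 genes (y axis) from limma, for tSema4B against vector (left) and NE against unstimulated (right). Filled symbols passed at an adjusted p of 0.05 or less. All points on the left lie above 0, from 0.06 to 1.02, while those on the right lie on both sides, from -0.73 to 0.64.

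Among the propeptide-cleaving pair, Pcolce, at chr5:137605103-137613784 (- strand), encodes the enhancer that speeds the release of the C-propeptide. It was measured at 1667, 1502 and 1713 normalized counts in vector and at 2715, 2707 and 2745 in tSema4B libraries. After NE it was at 1457, 1549 and 1317 in vector and at 2564, 2516 and 2434 in tSema4B libraries. The lines did not overlap in either condition, and the lowest tSema4B library of all lay well above the highest vector library. Without stimulation Pcolce was 1.68-fold higher with tSema4B (0.74 on the log2 scale, SE 0.0768, adjusted p = 3.32e-07, limma) and 1.74-fold higher after NE (0.80, SE 0.0768, adjusted p = 1.49e-07, limma). These were the smallest adjusted p-values of the 10 genes in both conditions. NE itself left it at a log2 fold change of -0.18 in vector and -0.12 in tSema4B cells, neither past the threshold. The value in vector cells passed under quantile normalization (-0.25, adjusted p = 0.0398, limma). Its gene model shares 112 exon bases on each strand with Fbxo24 or Gm36266, and the strand setting of the counting is not given in the sources used here.

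Bmp1, at chr14:70474558-70520234 (- strand), encodes the procollagen C-proteinase itself, which also activates lysyl oxidase precursors. Vector libraries held 106, 130 and 126 normalized counts, and tSema4B libraries 153, 196 and 272. The NE libraries held 120, 128 and 94.3 in vector and 244, 236 and 210 in tSema4B cells. Every tSema4B library was thus above every vector library, although the unstimulated tSema4B libraries were widely spread. The difference was 1.66-fold without stimulation (0.74, SE 0.189, adjusted p = 0.011, limma) and 2.02-fold after NE (1.02, SE 0.189, adjusted p = 0.000511, limma). In limma, without vector unstimulated replicate 1 the adjusted p of the first rose to 0.0634, and without tSema4B unstimulated replicate 3 to 0.0801. NE gave no change past the threshold in vector (-0.09) or in tSema4B cells (0.19).

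Serpinh1, at chr7:99345376-99353239 (- strand), encodes Hsp47, a chaperone devoted to collagen. Its normalized counts were 3719, 3461 and 4203 in vector, 4717, 5317 and 4308 in tSema4B, 2975, 3189 and 3078 in vector NE and 4635, 3889 and 4371 in tSema4B NE libraries. The lines did not overlap within either condition, but tSema4B NE and vector unstimulated libraries did. Serpinh1 was 1.26-fold higher in tSema4B cells without stimulation (0.33, SE 0.0851, adjusted p = 0.0106, limma) and 1.39-fold higher after NE (0.48, SE 0.0851, adjusted p = 0.000327, limma). The unstimulated call was lost without vector unstimulated replicate 2 (adjusted p = 0.0811), without tSema4B unstimulated replicate 2 (0.0708) and with no filter on low counts (0.0502). The call after NE held under all 18 alternatives tried.

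Lox, at chr18:52516067-52529867 (- strand), encodes the main lysyl oxidase. Unstimulated vector libraries held 6543, 7003 and 6036 normalized counts and tSema4B libraries 7044, 7710 and 6340, so these groups overlapped (log2 fold change 0.11, 95% interval -0.05 to 0.26, adjusted p = 0.404, limma). After NE the vector libraries held 5477, 4764 and 5157 and the tSema4B libraries 7198, 6953 and 7119. These groups were apart, with Lox 1.38-fold higher in tSema4B cells (0.47, SE 0.0748, adjusted p = 9.48e-05, limma). Lox was 1.27-fold lower with NE in vector cells (log2 fold change -0.35, adjusted p = 0.00377, limma), and in tSema4B cells it stood at 0.02 with an interval from -0.14 to 0.17. The difference between those NE responses was 0.36 on the log2 scale (SE 0.106, interval 0.14 to 0.58). It had an unadjusted p of 0.00242 and an adjusted p of 0.213 in limma, so it did not pass over all genes.

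Loxl1 (chr9:58287738-58313186, - strand), the lysyl oxidase relative tied to elastic fibres, was the one gene of the 10 that passed the test as lower with NE in both lines. It held 565, 531 and 595 normalized counts in vector and 690, 871 and 745 in tSema4B libraries. With NE it held 384, 348 and 364 in vector and 493, 408 and 486 in tSema4B libraries. The 4 groups did not overlap with their neighbours in the order vector NE, tSema4B NE, vector and tSema4B, a span of 2.10-fold between the outer means. NE lowered Loxl1 by 1.54-fold in vector (-0.62, SE 0.111, adjusted p = 0.000714, limma) and by 1.66-fold in tSema4B cells (-0.73, SE 0.111, adjusted p = 0.000197, limma). The line differences were 1.36-fold without stimulation (0.44, adjusted p = 0.00919, limma) and 1.26-fold after NE (0.34, adjusted p = 0.0345, limma). The first was lost without vector unstimulated replicate 2 (adjusted p = 0.0521) or tSema4B unstimulated replicate 2 (0.0601). The second was lost in 7 of 18 alternatives, where its adjusted p reached 0.197. Among these were the fits without vector NE replicate 2 (0.116), vector NE replicate 3 (0.0877), tSema4B NE replicate 1 (0.108) and tSema4B NE replicate 3 (0.108).

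Loxl2 (chr14:69609068-69695834, + strand), a crosslinking enzyme that also acts on basement membrane collagen, rested on few reads. It held 53.2, 47.9 and 96.9 normalized counts in vector and 118, 124 and 116 in tSema4B libraries, from 49 to 99 reads. After NE it held 109, 83.6 and 105 in vector and 153, 143 and 115 in tSema4B libraries. Every tSema4B library was above every vector library, the closest being 115 and 109. The third vector library stood closer to the tSema4B libraries than the other two did. Loxl2 was 1.89-fold higher in tSema4B cells without stimulation (0.92, SE 0.23, adjusted p = 0.00918, limma), the largest value of the 10 there. That call was lost without vector unstimulated replicate 1 (adjusted p = 0.0557) or replicate 2 (0.0693). Over 18 alternatives the value ran from 0.72 to 1.22, and it passed in 16. After NE the value was 0.46 (adjusted p = 0.164, limma). NE against unstimulated in vector cells gave 0.64 (adjusted p = 0.0766, limma), and 0.95 (adjusted p = 0.00886) without vector unstimulated replicate 3. Loxl2 shares 301 exon bases with a gene on the other strand.

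Plod1 (chr4:147909753-147936767, - strand), the lysyl hydroxylase that acts on the helix, held 343, 363 and 347 normalized counts in vector and 387, 444 and 485 in tSema4B libraries. The groups did not overlap, and the difference (0.31, SE 0.123, adjusted p = 0.1, limma) did not pass. After NE, with 275, 234 and 278 against 376, 414 and 333, it was 1.42-fold higher in tSema4B cells (0.51, SE 0.123, adjusted p = 0.00493, limma). NE lowered Plod1 by 1.34-fold in vector cells (-0.42, adjusted p = 0.0278, limma), a call lost in 6 of 18 alternatives, 5 of which left out 1 library. Those were each of the vector unstimulated libraries (adjusted p = 0.0652, 0.0933 and 0.0666 for replicates 1, 2 and 3), vector NE replicate 2 (0.141) and vector NE replicate 3 (0.053).

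Plod2 (chr9:92542223-92608428, + strand), the lysyl hydroxylase of the collagen telopeptides, shares 346 exon bases with a gene on the other strand. It held 345, 403 and 291 normalized counts in vector and 316, 353 and 408 in tSema4B libraries, which overlapped (0.06, 95% interval -0.21 to 0.32). After NE it held 380, 400 and 428 in vector and 458, 469 and 515 in tSema4B libraries (0.26, adjusted p = 0.17, limma). In tSema4B cells NE raised Plod2 1.34-fold (0.43, SE 0.128, adjusted p = 0.0496, limma), at the edge of the threshold. That call was lost in 11 of 18 alternatives, among them the fits without tSema4B unstimulated replicate 1 (adjusted p = 0.182) or 2 (0.103) and without tSema4B NE replicate 1 (0.063), 2 (0.0892) or 3 (0.148).

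P4ha1 (chr10:59323296-59373304, + strand), the catalytic subunit of the main prolyl 4-hydroxylase, held 1193, 1216 and 1246 normalized counts in vector, 1206, 1400 and 1321 in tSema4B, 1269, 1286 and 1241 in vector NE and 1589, 1426 and 1838 in tSema4B NE libraries. Only tSema4B NE stood apart from the rest. P4ha1 was 1.27-fold higher in tSema4B cells after NE (0.35, SE 0.0894, adjusted p = 0.00767, limma), and the adjusted p was 0.0617 without tSema4B NE replicate 3. Without stimulation the value was 0.10 (adjusted p = 0.521, limma). In tSema4B cells NE raised P4ha1 1.23-fold (0.30, SE 0.0894, adjusted p = 0.048, limma), which was lost in 8 of 18 alternatives. Among these were the fits without tSema4B unstimulated replicate 1 (adjusted p = 0.176) or 3 (0.0848) and without tSema4B NE replicate 1 (0.0761) or 3 (0.222).

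P4ha2 (chr11:54100095-54131665, + strand), the second catalytic subunit, held 162, 166 and 203 normalized counts in vector, 268, 215 and 235 in tSema4B, 247, 234 and 239 in vector NE and 307, 257 and 424 in tSema4B NE libraries. Both tSema4B groups lay above the matched vector group, by 0.44 (adjusted p = 0.078, limma) and 0.42 (adjusted p = 0.0659, limma). Neither passed in limma. The second passed in edgeR (adjusted p = 0.0453) and in DESeq2 (0.0356), with libraries scaled to the same total (0.0223), and with tSema4B NE replicate 2 left out (0.0176). NE against unstimulated gave 0.45 in vector and 0.43 in tSema4B cells (adjusted p = 0.0788 and 0.122, limma), and the latter passed without tSema4B NE replicate 2 (0.0424). The former passed with only the 6 libraries compared (0.0233) and with reads thinned to the shallowest library (0.0304).

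The next comparisons asked what NE did within each line. In vector cells 4 of 10 passed and all were lower, Lox, Loxl1, Plod1 and Serpinh1, against 4.78% of all genes tested, and 0 of 10 were higher against 6.82%. The count was 2 without vector unstimulated replicate 1 or vector NE replicate 3, where Lox and Loxl1 passed. Of the 8 preadipocyte or fibroblast markers tested, Pdgfrb, Cd34 and Dlk1 were lower with NE in vector cells and 4 did not pass. Ly6a, of the same list, was higher (0.87, adjusted p = 0.00316, limma). Of the other markers, Acta2, Pparg and Plin1 were lower there, and Ucp1, Fabp4 and Csf1r were higher. Loxl2 and P4ha2 were above 0 there with an unadjusted p of 0.0109 and 0.0113, and edgeR and DESeq2 also passed 4 of the 10. The median of the 10 was -0.13 against -0.02 over all genes. The fall of Serpinh1 was 1.23-fold (-0.30, SE 0.0851, adjusted p = 0.0253, limma) and was lost in 5 of 18 alternatives, 4 of them without 1 library. These were vector unstimulated replicates 1 (adjusted p = 0.0624) and 3 (0.149) and vector NE replicates 1 (0.0882) and 3 (0.0753). In tSema4B cells 1 of 10 was lower, Loxl1, against 2.58% of all genes, and 2 were higher, Plod2 and P4ha1, against 3.68%. Neither of the 2 passed with no filter on low counts, with quantile normalization, with only the 6 libraries compared, with the replicate block, or without tSema4B unstimulated replicate 1, tSema4B NE replicate 1 or tSema4B NE replicate 3, each of which left Loxl1 alone. The median there was 0.10 against 0. Each line was compared with its own unstimulated libraries, so the fold changes of these comparisons share no library, but each shares its groups with the line comparisons. The spread used in each test was pooled over all 12 libraries, so libraries of the other line enter each p-value.

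The test of the interaction asked whether the effect of NE differed between the lines. Of the 10 genes 0 passed in limma, edgeR or DESeq2, and 1, Lox, had an unadjusted p under 0.05 in each tool, as had 10.2% of all genes tested in limma. Over all genes tested 3 passed, or 0.0250%. The widest interval was that of Loxl2, from -1.13 to 0.22, and the narrowest was that of Lox.

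The likeness of the 10 genes across the 12 libraries is given as a description, because all libraries share the group differences above. Pearson correlations of log2 values ran from -0.47 (Loxl1 with Plod2) to 0.88 (Serpinh1 with Pcolce, and Pcolce with Bmp1), with a median of 0.52, and 39 of 45 pairs were above 0. Lox, Loxl1, Plod1, Serpinh1 and Pcolce had correlations of 0.62 to 0.88 with each other. The prolyl hydroxylases P4ha1 and P4ha2 had 0.82, and Plod2 had 0.71 with P4ha1. Bmp1 had 0.71 with Plod1 and 0.66 with P4ha1, and Loxl2 had 0.72 with P4ha2 and 0.62 with Pcolce. The genes outside the list whose levels were most like the mean of the 10 were Col5a2 (r = 0.991), Capza2 (0.973), Col3a1 (0.972), Tenm3 (0.971) and Ddost (0.971), of which Col5a2 and Col3a1 encode fibrillar collagens.

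**Figure D3:**
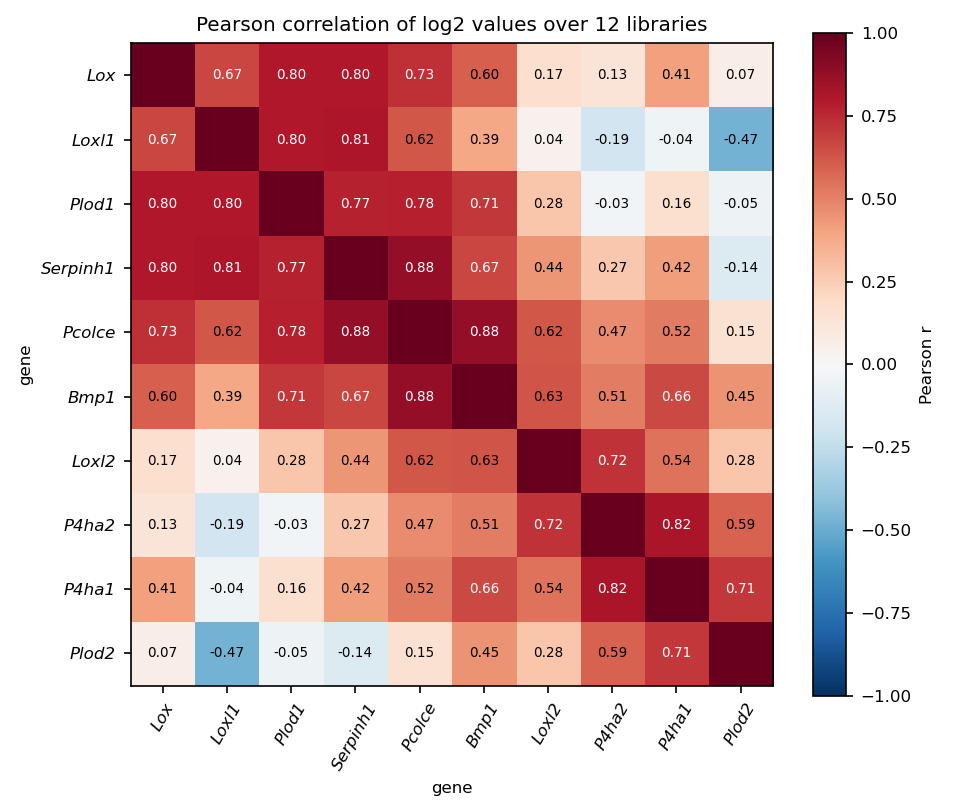
Pearson correlation (colour and number) of log2 normalized counts between each pair of the 10 genes over 12 libraries, with genes on both axes. Lox, Loxl1, Plod1, Serpinh1 and Pcolce form a block of 0.62 to 0.88, while Plod2 has -0.47 with Loxl1 and 0.71 with P4ha1.

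The other genes of the pathway were described from a list of 25, of which 20 were tested. Without stimulation 4 were higher in tSema4B cells and 1 lower, against 5.64% and 7.39% of all genes tested, with a median of 0.29. After NE 6 were higher and 1 lower, against 9.79% and 11.2%, with a median of 0.36. Adamts2, which removes the N-propeptide as Bmp1 removes the C-propeptide, was 1.82-fold higher without stimulation (0.87, adjusted p = 0.000343, limma) and 2.17-fold higher after NE (1.12, adjusted p = 1.32e-05, limma). P4ha3, the third prolyl hydroxylase subunit, was higher after NE by 1.28 on the log2 scale (adjusted p = 0.000712, limma), with 41.6 ± 9.47 normalized counts in vector NE and 102 ± 20.6 in tSema4B NE cells (SD, n = 3). Tmem38b, which encodes an endoplasmic reticulum channel that collagen modification depends on, was the one gene of that list that was lower in tSema4B cells, at -0.70 and -1.16 (adjusted p = 0.0133 and 8.92e-05, limma). The first was lost without vector unstimulated replicate 1 (adjusted p = 0.0724) or 2 (0.0893) or tSema4B unstimulated replicate 3 (0.0734). With NE, Tll1, a relative of Bmp1, was higher in both lines. It rose from 0 to 8 reads in the unstimulated libraries to 29 to 71 reads with NE, and log2 fold changes of 2.98 in vector and 3.36 in tSema4B cells (adjusted p = 0.0055 and 0.00322, limma) depend on the pseudocount at such low values.

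The substrates of these enzymes were described the same way. Of 12 fibrillar collagens and elastin 9 were tested, with a median of 0.87 in unstimulated tSema4B cells. There 6 were higher and 1 lower, against 5.64% and 7.39% of all genes tested. After NE 5 were higher and 1 lower, against 9.79% and 11.2%, with a median of 0.99. Col1a1 had means of 5737 ± 124 in vector and 11724 ± 913 in tSema4B libraries, and 4660 ± 408 and 9721 ± 355 after NE (SD, n = 3). Its log2 fold changes between the lines were 1.03 and 1.06, against 0.96 and 1.10 for Col1a2 and 1.07 and 1.18 for Col3a1, all with adjusted p-values of 9.45e-10 or less in limma. Col11a1 was the one lower gene, at -3.33 and -2.62 on the log2 scale (adjusted p = 0.000147 and 0.00136, limma), with 1 to 6 reads in each tSema4B library, so these values depend on the pseudocount. With NE 2 of the 9 were lower in vector and 4 in tSema4B cells, against 4.78% and 2.58% of all genes. Among them were Col1a1 and Col1a2 in both lines and Col5a3 (-1.14, adjusted p = 0.00109, limma) in tSema4B cells. In tSema4B cells the falls of Col1a1 (-0.27) and Col1a2 (-0.29) were lost without tSema4B unstimulated replicate 2 (adjusted p = 0.107 and 0.0597) or tSema4B NE replicate 2 (0.0879 and 0.0546), with no filter, and under quantile normalization, where Col1a1 stood at -0.03. In vector cells the fall of Col1a1 was lost under quantile normalization (-0.23, adjusted p = 0.0528, limma). The enzymes and substrates were not tested against each other.

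**Figure D4:**
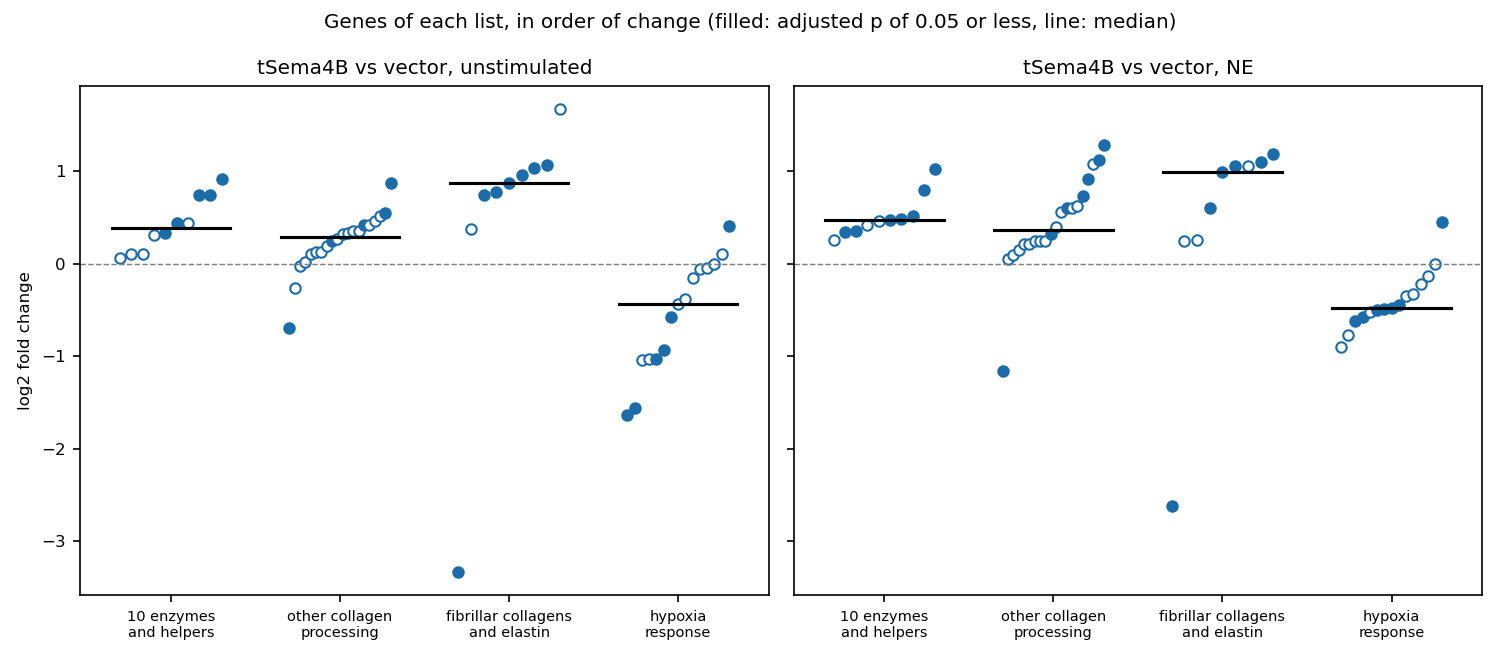
Log2 fold changes (y axis) between tSema4B and vector cells for the genes of 4 lists (x axis), without stimulation and after NE. Points are genes in order of change, filled where the adjusted p was 0.05 or less, and lines are medians. The medians are 0.39 and 0.47 for the 10 enzymes and helpers, 0.87 and 0.99 for the collagens and elastin, and -0.44 and -0.48 for the hypoxia-response genes.

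Because several of the 10 are hypoxia targets, 15 other hypoxia-response genes were set beside them. In tSema4B cells 1 was higher and 5 lower without stimulation (median -0.44), against 5.64% and 7.39% of all genes tested. After NE 1 was higher and 6 lower (median -0.48), against 9.79% and 11.2%. Aldoa, a glycolytic enzyme, was at -1.03 and -0.58 (adjusted p = 1.37e-09 and 6.78e-06, limma), and Pdk1, which restrains pyruvate entry into mitochondria, was at -1.56 and -0.50 (adjusted p = 6.31e-07 and 0.0368, limma). The second value of Pdk1 was lost without vector NE replicate 1 (adjusted p = 0.132), 2 (0.0876) or 3 (0.0561) or tSema4B NE replicate 1 (0.227). Bnip3, described further below, was at -1.64 and -0.48 (adjusted p = 2.72e-08 and 0.0188, limma). Its second value was lost in 3 of 18 alternatives, with adjusted p-values up to 0.0811. With NE 4 were higher and 0 lower in vector cells, and 6 higher and 0 lower in tSema4B cells. Among all genes tested 6.82% and 3.68% were higher, and 4.78% and 2.58% lower. The part of hypoxia in the results was not tested.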

How the data were processed

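Per the study's methods, cDNA was made with SMART-Seq2, libraries with Nextera XT, and single-end reads were screened with FastQ Screen, aligned to mm10 (GRCm38.p4) with STAR 2.7.9a and counted per gene with htseq-count. The deposited signal is a normalized read count, which the authors made by dividing counts by DESeq2 size factors. In every library 100% of non-zero values were whole multiples of 1 read (tolerance 0.01), so reads were recovered for count tests.

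Values were tested as log2(normalized count + 1) with limma 3.58.1 (R 4.3.3) in one model of 4 groups without a block, over genes that reached 10 normalized counts in 3 or more of the 12 libraries, two-sided, with Benjamini-Hochberg adjustment over all 11998. Fold changes are on this scale and understate those of low genes. Alternatives were a pseudocount of 0.5 or 10, other filters, scalings and libraries, edgeR 4.0.16 and DESeq2 1.42.0 on reads, and the replicate block. Scripts were tested on simulated data.

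Genes, lists and tests were chosen with earlier results of these data known. From the wider lists, genes were named if they passed and changed by 1 or more on the log2 scale, and otherwise the 2 with the largest change among those that passed. The 5 genes most like the mean of the 10 were added. Exon lengths and overlaps came from a GENCODE annotation of GRCm38, and promoters from RefSeq.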

Additional observations from a re-analysis of the deposited data

Results flagged for a closer look

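Bnip3, a mitophagy gene of the hypoxia list, was the one named gene whose response to NE differed between the lines. It held 517, 628 and 525 normalized counts in vector, 185, 226 and 134 in tSema4B, 675, 631 and 714 in vector NE and 490, 481 and 474 in tSema4B NE libraries. The NE effect was 0.28 on the log2 scale in vector and 1.43 in tSema4B cells, and the difference between them was 1.16 (SE 0.201, adjusted p = 0.0371, limma). The difference kept its sign in all 23 alternatives but passed in 11 of them, with adjusted p-values up to 0.194, 0.194 being that with no filter on low counts, and it was 0.0529 with thinned reads. Without vector unstimulated replicates 1, 2 and 3 the adjusted p was 0.109, 0.124 and 0.0537, without tSema4B unstimulated replicates 1 and 3 it was 0.0639 and 0.0628, without vector NE replicates 1, 2 and 3 it was 0.111, 0.0864 and 0.0776, and without tSema4B NE replicates 2 and 3 it was 0.0998 and 0.0704. Bnip3 shares 504 exon bases with Gm45507 on the other strand.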

How the results depend on the processing

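All 10 line differences after NE kept their sign under the 18 alternatives for each gene. The calls of Pcolce in both conditions, of Lox, Plod1, Serpinh1 and Bmp1 after NE, and the NE falls of Lox in vector cells and Loxl1 in both lines also held in all 18. The count of NE against unstimulated in tSema4B cells, 3 of 10, was 1 with no filter on low counts, with quantile normalization, with only the 6 libraries compared and with the replicate block. The block changed no other count by over 1.5 times, and same-numbered libraries did not deviate together (r -0.047 to 0.028 over 18 pairs, 0 over 0.1, 0 of 12 libraries closest to their own number), so the numbers were not taken as pairs. Asking also for a change of 1 or more on the log2 scale left 0, 1, 0 and 0 genes in the 4 comparisons of 2 groups, the lone gene being Bmp1 after NE. Over the 18 alternatives the line difference of Loxl2 without stimulation (0.72 to 1.22) and that of Bmp1 after NE (0.89 to 1.11) each lay on both sides of 1.

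Leaving out 1 library gave 2 to 5 genes for the lines without stimulation, 5 to 8 after NE, 2 to 3 for NE in vector cells, 1 to 3 for NE in tSema4B cells and 0 to 0 for the interaction. Values that changed sign did not pass. Plod2 between unstimulated lines was -0.03 at the same total over nuclear genes, -0.06 without vector unstimulated replicate 3 and -0.04 without tSema4B unstimulated replicate 3, in a range up to 0.17 when 1 library was left out. P4ha1 with NE in vector cells was -0.01 under quantile normalization, and Bmp1 there ran from -0.18 to 0.04 (without vector NE replicate 3). With NE in tSema4B cells, Bmp1 ran from -0.01 (without tSema4B unstimulated replicate 1) to 0.41 and Lox from -0.06 (without tSema4B unstimulated replicate 3) to 0.09. The cause was not tested.

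Scaling moved the median of all genes by less than 0.1 on the log2 scale. Reads thinned to the shallowest library and the same total over nuclear genes were chosen after seeing the data, and gave 6 of 10 genes after NE. Thinning changed the calls of Loxl1 between the lines after NE, of Plod1 and P4ha2 with NE in vector cells and of Plod2 with NE in tSema4B cells.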

Other observations

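Of 10 genes known to answer cAMP, the messenger of β-adrenergic receptors, 8 were tested, and 5 were higher with NE in vector cells (Nr4a1, Crem, Pde4b, Pde4d and Ucp1) and 2 in tSema4B cells (Crem and Ucp1). The shares of all genes tested were 6.82% and 3.68%. Crem, a cAMP-responsive transcription factor, was at 70.8 ± 0.944 normalized counts in vector and 231 ± 15.9 in vector NE cells, and at 62.8 ± 19.1 in tSema4B and 163 ± 15.7 in tSema4B NE cells (SD, n = 3). Ucp1, the uncoupling protein of brown fat, was at 12.1 ± 2.98 in vector and 276 ± 14.5 in vector NE cells. It was at 0 in all 3 unstimulated tSema4B libraries and at 62.9 ± 3.10 in tSema4B NE cells. Of the 8, 0 had a difference in NE response that passed in limma (smallest adjusted p 0.181), and 4 had an unadjusted p under 0.05. Between the lines, 0 of the 8 were higher in tSema4B cells. Without stimulation 2 were lower, Ucp1 and Per1, and after NE 3 were lower, Ucp1, Nr4a1 and Pde4d. Among all genes tested 7.39% and 11.2% were lower, and 5.64% and 9.79% higher. Per1, a circadian clock gene, was at 58.0 ± 7.15 in vector and 26.0 ± 13.5 in tSema4B cells without stimulation (-1.28, adjusted p = 0.0147, limma). This was lost without vector unstimulated replicate 1 (adjusted p = 0.0641) or 2 (0.0545) or tSema4B unstimulated replicate 3 (0.0838). After NE, Ucp1 was at -2.12 (adjusted p = 0.000189, limma) and Nr4a1, an immediate-early nuclear receptor, was at -1.60 (adjusted p = 0.00303, limma). Pde4d, a phosphodiesterase that degrades cAMP, was at -0.98 (adjusted p = 0.0256, limma), and lost this without vector NE replicate 1 (0.0653), 2 (0.0775) or 3 (0.0703) or tSema4B NE replicate 2 (0.136), and with no filter on low counts (0.0561).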
